A study of Arabidopsis thaliana with 20 samples.

Results

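ARR1, ARR10, and ARR12 are type-B response regulators, transcription factors that switch on genes when the plant hormone cytokinin is present. The step examined here was the loss of the last of these 3 factors in Arabidopsis roots, in which the triple mutant arr1/10/12 was compared with the 3 double mutants arr1/10, arr1/12, and arr10/12. Of the 20 arrays in the series, the 8 untreated arrays of these 4 genotypes were used, 2 per genotype, and each double was given equal weight. All 4 lines are T-DNA insertion mutants with the alleles arr1-3, arr10-5, and arr12-1 in their combinations, in the background of the wild type Col-0. The double arr1/10 keeps ARR12, arr1/12 keeps ARR10, arr10/12 keeps ARR1, and the triple keeps none. Each genotype was 1 line, arr1/12 was isolated for the study, and the other 3 lines came from another laboratory, so line and genotype cannot be told apart. Seedlings of all 4 lines were grown for 10 days on vertical agar plates without hormone treatment, and roots were cut off near the border with the hypocotyl. Untreated wild type was not used in this comparison.

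Cytokinin is sensed by histidine kinase receptors in the membrane, of which WOL (also called AHK4 or CRE1) is the one best known from roots. A phosphate is passed from the receptor through phosphotransfer proteins to the type-B ARRs in the nucleus, which then activate their targets. Among the earliest targets are the type-A ARRs, which dampen the same pathway, and in the root cytokinin is known for restraining the meristem and promoting differentiation, in part through the auxin repressor SHY2.

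Root RNA was measured on Agilent arrays of the one-colour type. Levels are given as log2 normalized signal, and a difference of 1 on this scale is a 2-fold change. Before normalization the 2 triple arrays were the dimmest of the 8, with a median log2 intensity of 8.65 and 8.21 against 9.20 to 9.61 in the doubles, and 71.8% and 72.2% of their probes were well above background against 73.2% to 75.7%. Their replicates also differed more from each other, by a root mean square of 0.591 against 0.362 to 0.364 in the doubles. The part of these values in the results was not tested. Of 43603 probes, 32688 were tested, and 1986 of those could be given a gene name, nearly all of them genes that the study had listed as lower than wild type in some mutant. A fall among named genes is therefore not independent evidence, nor is a rise among those taken from the list of up-regulated genes. A cluster that the study defined by a fall in the triple alone held 791 tested genes, of which 788 fell. Among its members are WOL, ARR3, CKX5, EXPA15, LAX3, AXR3, NIA1, APL, AT1G06170, AT1G77520, and CLO4. Precision was limited by the small number of arrays, 2 per genotype, which the methods call biological replicates. The fit took out a shift shared by all arrays of the same replicate number. The p-values and standard errors measure the spread left after that, which can be smaller than the spread between replicates.

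The 3 deleted genes separated the lines as labelled. ARR1 was at 12.22 and 12.23 on the 2 arrays of arr10/12, which keeps it, and at 8.13 and 8.27 (arr1/10), 7.83 and 7.94 (arr1/12), and 7.59 and 7.74 in the triple. ARR10 was at 13.64 and 13.60 (arr1/12), against 7.16, 7.19, 7.20, and 7.47 on the arrays of the other doubles and 5.29 and 4.76 in the triple. ARR12 was at 11.96 and 11.89 (arr1/10), against 4.80, 5.49, 5.32, and 5.77 in the doubles without it and 4.18 and 3.60 in the triple, where it was not well above background on either array. Each gene was thus high on the arrays of 1 double and low on all others. The position of the probes relative to the insertions is not known here.

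Most probes differed in signal between the triple and the doubles. In the triple against the mean of the 3 doubles, 22824 of 32688 tested probes (69.8%) passed an adjusted p under 0.05 (limma, Benjamini-Hochberg), of which 13282 (40.6%) fell and 9542 (29.2%) rose. Most changes were small. The median absolute log2 difference of the called probes was 0.695, 7811 of them changed by less than 0.5, and 2693 by 2 or more. Large changes went upward more often, with 1559 rises among those 2693. Both triple arrays lay below all 6 double arrays for 12507 probes (38.3%) and above all of them for 8885 probes (27.2%), and the groups overlapped for 11296 (34.6%). Within the 2 replicate numbers, which were hybridized on different slides, 7 of the called probes had opposite directions. Calling on the same arrays favours probes whose directions agree, so this count is not independent evidence. The median difference over all tested probes was −0.10.

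**Figure D1:**
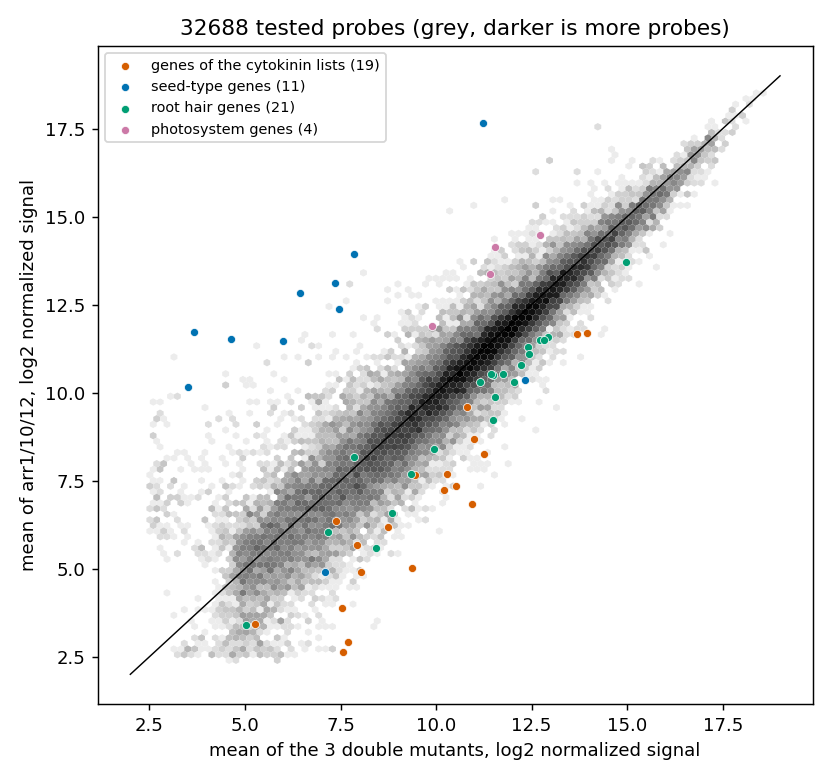
Mean log2 normalized signal of the 3 double mutants (x axis) against that of arr1/10/12 (y axis) for the 32688 tested probes, in grey hexagons that are darker where there are more probes, with the line of equality. Coloured points are single named genes, and those of the cytokinin lists lie below the line, while 9 of 11 seed-type genes lie above it.

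Every tested gene of the cytokinin lists fell. Of 61 genes in these lists other than the deleted ones, 17 could be paired with a probe and 16 tested. No phosphotransfer protein or cytokinin response factor was among them. All 16 fell, against 71.7% of all named genes and 40.6% of all tested probes. Their median was −2.58, against −1.06 for all named genes and −0.10 for all tested probes. All of them came from the study's list of genes lower than wild type in some mutant. Their fall is therefore not independent evidence, and the share of all tested probes is not a like comparison. The type-A ARRs are cytokinin-induced repressors of the pathway, and all 7 of the tested members were lower in the triple, with log2 differences between −4.78 and −1.82. ARR7 was at 10.55 and 10.54 (arr1/10), 10.89 and 10.84 (arr1/12), 11.45 and 11.38 (arr10/12), and 7.0 and 6.69 in the triple. The triple lay far below every double, with a difference of −4.10 ± 0.08 (SE, 2 against 6 arrays, limma adjusted p = 4.5e-05), a 17.1-fold fall. ARR5 was at 10.67 and 10.55 (arr1/10), 10.92 and 10.75 (arr1/12), 11.59 and 11.49 (arr10/12), and 8.59 and 8.78 in the triple (−2.31 ± 0.09, limma adjusted p = 8.65e-05). The groups did not overlap, and arr10/12 was the highest. ARR3 (−2.97 ± 0.10), ARR6 (−3.00 ± 0.11), and ARR4 (−2.01 ± 0.06) also lay below all 6 double arrays. ARR17 was too dim to be tested, with only 1 of 6 double arrays well above background.

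ARR15, another type-A member, disappeared into the background of the triple. It was at 8.43 and 8.40 (arr1/10), 6.4 and 6.66 (arr1/12), 8.19 and 8.06 (arr10/12), and 3.18 and 2.64 in the triple, where neither array was well above background, so the triple was at least 17.9-fold lower than the mean of the doubles (limma adjusted p = 7.14e-05). Here and below, "at least" takes a probe not well above background at the lowest signal of a probe well above it on that array, or at its own signal if higher. The double arr1/12 stood between the triple and the other doubles. LOG2, a member of the family that releases active cytokinin, also had arr1/12 between the triple and the other doubles. It was at 7.90 and 8.15 (arr1/10), 6.32 and 5.98 (arr1/12), 8.52 and 8.55 (arr10/12), and 2.57 and 2.68 in the triple, at least 20.3-fold lower (limma adjusted p = 5.47e-05).

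**Figure D2:**
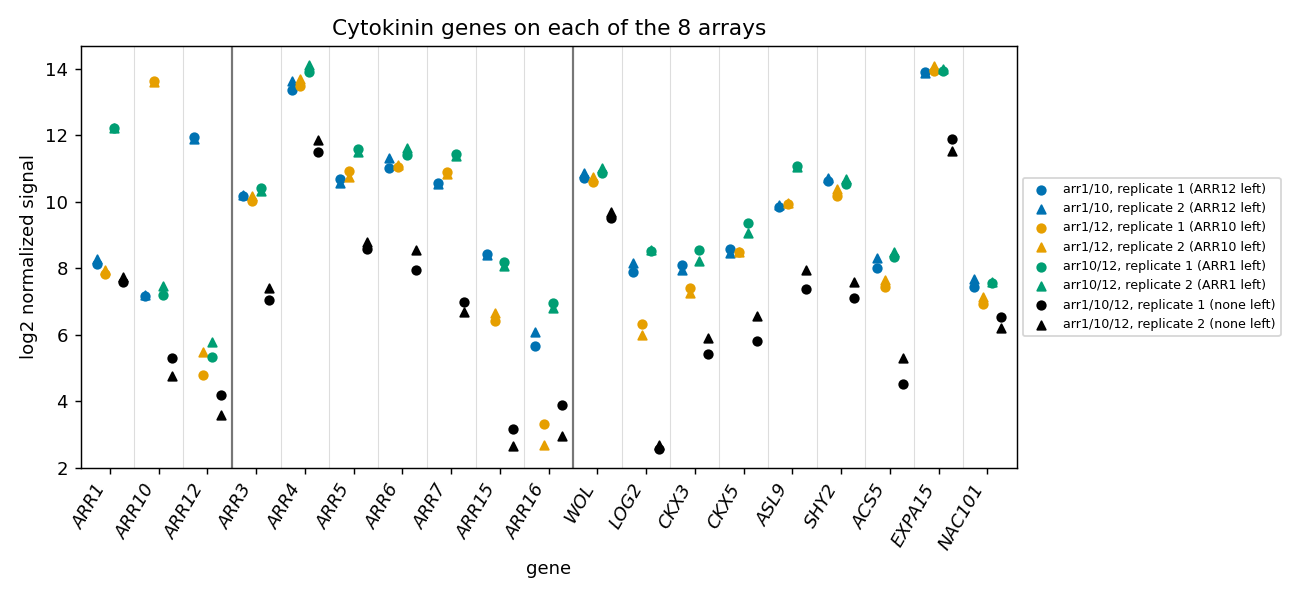
Log2 normalized signal (y axis) of 19 genes (x axis) on each of the 8 arrays, with colour for the genotype and marker shape for the replicate. From left to right stand the 3 deleted genes, 7 type-A ARRs, and 9 other genes of the cytokinin lists, and the black points of the triple lie lowest except for ARR16, where arr1/12 is as low.

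Other tested genes of the cytokinin lists also fell. The receptor WOL was at 10.60 to 11.01 on the 6 double arrays and at 9.51 and 9.68 in the triple (−1.21 ± 0.05, limma adjusted p = 9.3e-05), a step of 2.31-fold. The cytokinin oxidases, which break the hormone down, were represented by CKX3 (−2.25 ± 0.17) and CKX5 (−2.55 ± 0.21), and both lay below all double arrays. SHY2, the Aux/IAA repressor through which cytokinin counters auxin in the meristem, was at 10.61 and 10.73 (arr1/10), 10.18 and 10.38 (arr1/12), 10.54 and 10.67 (arr10/12), and 7.12 and 7.60 in the triple, an 8.9-fold fall (−3.15 ± 0.09, limma adjusted p = 5.87e-05). Its signal on the double arrays lay between 10.18 and 10.73 and was lowest on both arrays of arr1/12. ACS5, which makes the precursor of ethylene, fell at least 8.75-fold and was not well above background in the triple. ASL9, a LOB-domain gene induced by cytokinin, fell by 2.61, the expansin gene EXPA15, whose product loosens cell walls, by 2.25, and the NAC factor gene NAC101, also known as VND6 in xylem vessels, by 1.03 on the log2 scale. These last 5 genes are ones that the study itself singled out.

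Hormone and nutrient genes outside the cytokinin lists moved in both directions. LAX3, an auxin influx carrier, was at 14.12 to 14.43 in the doubles and at 12.08 and 12.04 in the triple, so that its 4.62-fold fall (−2.21 ± 0.06, limma adjusted p = 5.47e-05) was far larger than the spread of either group. LAX3 is in the cluster that the study defined by a fall in the triple alone, so this gap is not independent evidence. The Aux/IAA genes IAA5 (−1.51 ± 0.10) and AXR3 (−1.29 ± 0.10) fell with SHY2, which made 3 of the 3 tested. VSP1, a vegetative storage protein gene induced by jasmonate, fell by 3.29 ± 0.10. Among nutrient genes, 3 of 5 tested fell, a smaller share than the 71.7% of all named genes. These were the nitrate reductase gene NIA1 (−1.07 ± 0.08, with 1 arr10/12 array left out as an outlier spot), the sulphate transporter gene SULTR1;1 (−1.16 ± 0.17), and the iron transporter gene IRT1 (−1.55 ± 0.43, adjusted p = 0.0267), whose call was lost without replicate 1 of the triple (−0.76, adjusted p = 0.137) and without 3 of the double arrays (replicate 1 of arr1/10 and both of arr10/12, 0.0544 to 0.0638). The nitrate transporter gene NRT2.1 rose by 0.61 ± 0.13, and the value was 0.34 without replicate 2 of the triple. The ethylene gene ACS2 fell by 1.03 ± 0.15, with both triple arrays below all double arrays. EIN3, the main transcription factor of the ethylene response, rose by 0.49 ± 0.06, and NCED3, a rate-limiting enzyme of abscisic acid synthesis, by 0.70 ± 0.12, with overlapping arrays and a call that was lost without the replicate block and with array weights (adjusted p = 0.0756 for the weights). Of 4 flavonoid and phenylpropanoid genes tested, the regulators MYBL2 (3.14 ± 0.07) and MYB111 (2.79 ± 0.35) and the phenylpropanoid regulator MYB32 (0.41 ± 0.07) rose. MYBL2 was at 6.87 to 7.66 on the double arrays and 10.19 and 10.62 in the triple. NRT2.1, EIN3, NCED3, and MYBL2 came from the study's list of up-regulated genes, so their rise is not independent evidence.

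Some root cell type genes fell too. No gene of the xylem, root cap, or meristem and cell division lists could be paired with a probe. The phloem factor gene APL (−2.43 ± 0.42) was lower in the triple and well above background on only 1 of the 2 triple arrays, with −1.58 and −3.35 when replicate 1 or 2 of the triple was left out. A group of 21 root hair genes, collected by their names after values had been seen, held 20 that fell and 1, MRH1, that did not pass the test (0.31 ± 0.14, adjusted p = 0.108). Their median was −1.34, against −1.06 over all 1986 named genes, of which 71.7% fell, and some of the 21 belong to the cluster that the study defined by a fall in the triple alone. RSL4 and RSL2, bHLH factors that drive hair growth, fell by 0.89 ± 0.06 and 1.65 ± 0.11, and the hair expansin gene EXPA7 was at 12.51 to 12.96 in the doubles and at 11.15 and 11.86 in the triple (−1.23 ± 0.12, limma adjusted p = 0.000926). RHS2, a calcium-binding protein gene, fell most, from 8.09 to 8.77 in the doubles to 5.37 and 5.80. All 20 that fell had both triple arrays below all double arrays. RSH4 was not well above background in the triple, and its call was lost under 4 of the other ways of processing and without replicate 1 of the triple or of arr1/12.

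Among all named genes, 1423 of 1986 (71.7%) fell and 349 (17.6%) rose. Outside the cluster chosen for its fall in the triple, 635 of 1195 (53.1%) fell and 349 (29.2%) rose, against 40.6% and 29.2% of all probes. Within gene families taken by name, the xyloglucan endotransglucosylases, which remodel cell walls, fell in 7 of 7 cases, receptor-like kinases in 18 of 19, glutathione S-transferases in 12 of 13, peroxidases in 15 of 18, and heat shock proteins in 12 of 16. The 6 ribosomal protein genes lay between −0.22 and 0.03 and did not pass the test, and NAC factors split into 4 falls and 5 rises. These shares are to be read against the 71.7% of all named genes.

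The 12 largest falls among named genes included LOG2 and ARR15. CYP93D1, a cytochrome P450 gene, was at 9.87 and 10.34 (arr1/10), 9.70 and 9.68 (arr1/12), 10.15 and 9.71 (arr10/12), and 2.60 and 2.58 in the triple, at least 102-fold lower (limma adjusted p = 5.09e-05). It was well above background on all 6 double arrays and on neither triple array. The same held for AT3G46880, of unknown function (at least 58.7-fold lower), AT4G25410, annotated as a transcription factor (at least 30.1-fold), AT1G34330, a peroxidase pseudogene (at least 28.7-fold), AT1G06170, a bHLH gene (at least 26-fold), and AT1G23160, a GH3 gene of the family that conjugates auxin and other hormones (at least 22.5-fold). The O-methyltransferase gene AT1G77520 was at 12.70 to 13.22 in the doubles and at 7.41 and 5.69 in the triple (−6.44 ± 0.43), and CYP78A8 at 12.85 to 13.86 against 9.45 and 7.67 (−4.81 ± 0.47). AT4G33720, annotated as pathogenesis-related, fell by 5.62 ± 0.39 and was well above background on 1 triple array. AT2G16005, an ML-domain gene, was at 11.91 to 14.06 in the doubles but at 2.97 and 9.26 in the triple, and its difference of −6.66 ± 1.52 became −3.34 without replicate 1 and −10.02 without replicate 2.

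Seed genes were among the largest rises. Genes for storage proteins, for the oil bodies of seeds, and for late embryogenesis abundant proteins, which protect drying embryos, are normally active in maturing seeds, and isocitrate lyase serves the conversion of seed oil to sugar after germination. A group of 11 such genes, collected by annotation after values had been seen, held 9 that rose, by 4.92 to 8.07 on the log2 scale, and the group's median was 6.09. Of all tested probes 29.2% rose, and of all named genes 17.6%. SESA5, a seed storage albumin gene, was at 3.91 and 2.61 (arr1/10), 2.65 and 2.74 (arr1/12), 4.05 and 6.06 (arr10/12), and 13.14 and 10.33 in the triple (8.07 ± 0.94, limma adjusted p = 0.00142). Only 1 of the 6 double arrays was well above background, so SESA5 entered the test through the triple, and the size of its rise is uncertain. OLEO1, an oleosin of the oil body coat, was at 3.90 and 3.72 (arr1/10), 3.90 and 4.30 (arr1/12), 5.83 and 6.17 (arr10/12), and 12.07 and 10.98 in the triple (6.89 ± 0.32, limma adjusted p = 0.000126). Both groups were far apart, and among the doubles arr10/12 was the highest. OLEO1 was well above background on only 2 of the 6 double arrays. The size of its rise and its order among the doubles thus rest on signal near background.

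ICL, the gene for isocitrate lyase, was at 11.00 and 11.06 (arr1/10), 10.87 and 11.28 (arr1/12), 11.52 and 11.66 (arr10/12), and 17.76 and 17.56 in the triple, an 86.2-fold rise with close replicates (6.43 ± 0.12, limma adjusted p = 4.5e-05). The caleosin gene ATPXG2 rose by 6.63 ± 0.23, a second oleosin gene, AT2G25890, by 6.39 ± 0.18, and the seed-type cupin gene AT2G28490 by 6.09 ± 0.43. Among late embryogenesis genes, ECP63 was at 6.46 to 8.35 in the doubles and at 13.22 and 13.04 in the triple (5.78 ± 0.21), GEA6 rose by 4.92 ± 0.20, and AT5G44310 by 5.47 ± 0.58. The other caleosin gene, CLO4 (−2.00 ± 0.12), and the other cupin gene, AT5G61750 (−2.18 ± 0.29), fell. All 11 genes were higher in arr10/12 than in the other doubles, against 1063 of all 1986 named genes and 24.7% of the probes that rose. The study had listed its genes by their change from wild type in these same mutants. This order among the doubles is therefore not independent evidence. The F test among the doubles (limma) called 0 of the 11 at an adjusted p under 0.05, with 7 at an unadjusted p under 0.05, and called 1 with all 16 untreated arrays in the fit, 4 with array weights, and 1 when the doubles were fitted alone.

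**Figure D3:**
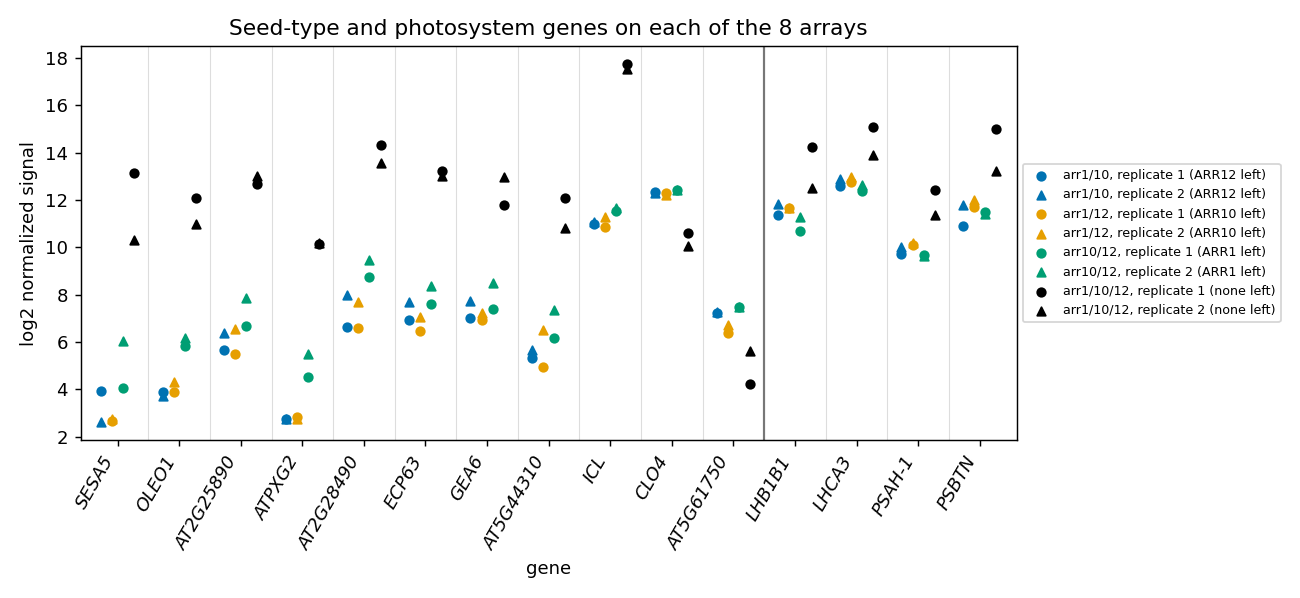
Log2 normalized signal (y axis) of 11 seed-type genes and, right of the grey line, 4 photosystem genes (x axis) on each of the 8 arrays, with colour for the genotype and marker shape for the replicate. The triple is above all doubles for 9 of the 11 seed-type genes and all 4 photosystem genes, and below them for CLO4 and AT5G61750.

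The other largest rises included AT1G23130, a Bet v I allergen gene (8.74 ± 1.01), ATOEP16-2, a channel of the outer plastid envelope (7.20 ± 0.37), AT3G54940, a cysteine protease gene (6.84 ± 0.27), AT4G25580, annotated as stress-responsive (6.45 ± 0.20), and 3 genes of unknown function, AT1G68250 (7.81 ± 0.53), AT3G16660 (6.75 ± 1.16), and AT2G19320 (6.15 ± 0.25). AT3G16660 was at 8.09 on 1 array of arr1/12 and at 2.49 to 3.37 on the other 5 double arrays, against 8.67 and 12.30 in the triple. Like SESA5, the genes ATPXG2, AT1G23130, ATOEP16-2, AT3G16660, and AT2G19320, and also MYB111, were well above background on only 1 of the 6 double arrays, so these differences are set against signal near background. COR15A, a cold-regulated gene also induced by abscisic acid, was at 4.29 to 5.31 in the doubles and at 12.00 and 9.11 in the triple (5.70 ± 0.76, limma adjusted p = 0.00221). The replicates of the triple were far apart, yet both lay above all doubles. Over all probes, 308 were well above background on both triple arrays and on none of the 6 double arrays, and 706 on all 6 double arrays and on neither triple array. The probe with the largest rise, A_84_P16974, was at 2.67 to 4.62 in the doubles, never well above background, and at 14.38 and 12.53 in the triple (at least 857-fold higher), and A_84_P11715 rose at least 497-fold. The largest falls were those of A_84_P23783 (−7.65 ± 0.20) and, next among probes without a gene name, A_84_P22943 (−7.17 ± 0.22). These probes could not be paired with genes.

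Genes of green tissue rose as well. No gene of the list of shoot markers could be paired with a probe, and 4 photosystem genes, all from the study's list of up-regulated genes, were named after values had been seen. LHB1B1, a light-harvesting chlorophyll-binding protein gene, was at 11.37 and 11.84 (arr1/10), 11.66 and 11.66 (arr1/12), 10.70 and 11.29 (arr10/12), and 14.25 and 12.50 in the triple (1.96 ± 0.50, limma adjusted p = 0.0198). The call was lost when either arr1/12 array was left out (0.0574 and 0.0525), and the difference was 2.99 without replicate 2 of the triple and 0.90 without replicate 1. LHCA3 (1.78 ± 0.33), the photosystem I subunit gene PSAH-1 (2.00 ± 0.27), and the photosystem II subunit gene PSBTN (2.57 ± 0.53) rose too, each more in replicate 1 than in replicate 2, with a median of 2.79 and 1.24 for the 4 genes. Without replicate 1 the differences were 1.05 for LHCA3 and 1.49 for PSBTN. For the 11 seed-type genes the medians within replicates 1 and 2 were 6.63 and 5.34. In RNA from whole organs, more cells of a kind and more RNA per cell cannot be told apart, and the part of seed or green tissue in the other results was not tested.

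When each double was compared with the triple on its own, 20535 probes passed against arr1/10 (62.8%), which keeps ARR12, 20213 against arr1/12 (61.8%), which keeps ARR10, and 20925 against arr10/12 (64.0%), which keeps ARR1. The falls numbered 12042 (36.8%), 11725 (35.9%), and 12180 (37.3%), and the rises 8493 (26.0%), 8488 (26.0%), and 8745 (26.8%). These 3 comparisons share the 2 triple arrays and so are not independent. Without replicate 1 of arr1/10, 13265 probes passed against that double. A probe was called against 1 double alone in 787 cases (2.41%) for arr1/10, 688 (2.1%) for arr1/12, and 990 (3.03%) for arr10/12. Among named genes these were 18, 24, and 56. The expansin gene EXPB2 was the one with the largest difference of this kind, at 6.52 and 6.62 (arr10/12) and at 2.66 to 3.94 in the other doubles, where it was not well above background, and 2.81 and 2.71 in the triple (−3.81 ± 0.36 against arr10/12). Its F test among the doubles did not pass (adjusted p = 0.173). For arr1/12 it was AT4G37220, annotated as stress-responsive, which was at 7.78 and 7.78 in that double and at 8.86 to 9.46 elsewhere (1.41 ± 0.19 against arr1/12), and for arr1/10 AT2G17680, of unknown function (−2.38 ± 0.48 against arr1/10).

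The triple lay nearest to arr1/12. Within replicate 1, the root mean square log2 difference over tested probes was 1.3 to arr1/12, 1.32 to arr1/10, and 1.32 to arr10/12, and within replicate 2 it was 1.18, 1.2, and 1.21. The median absolute difference and the Spearman correlation gave the same nearest double in both replicates (0.921 and 0.936 for the correlation with arr1/12). The gap to the next double was only 0.0191 and 0.0242, while the doubles differed from each other by 0.333 to 0.362 and the 2 triple arrays by 0.591. So all 3 doubles were at nearly the same distance, and the triple stood apart from them all. With 2 values per double the order was not tested. Probe by probe, the triple mean was nearest to arr1/12 for 41.9% of all tested probes, to arr1/10 for 32.1%, and to arr10/12 for 26.0%. Among probes that rose by at least 1, arr1/12 was the nearest for 50.5%.

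**Figure D4:**
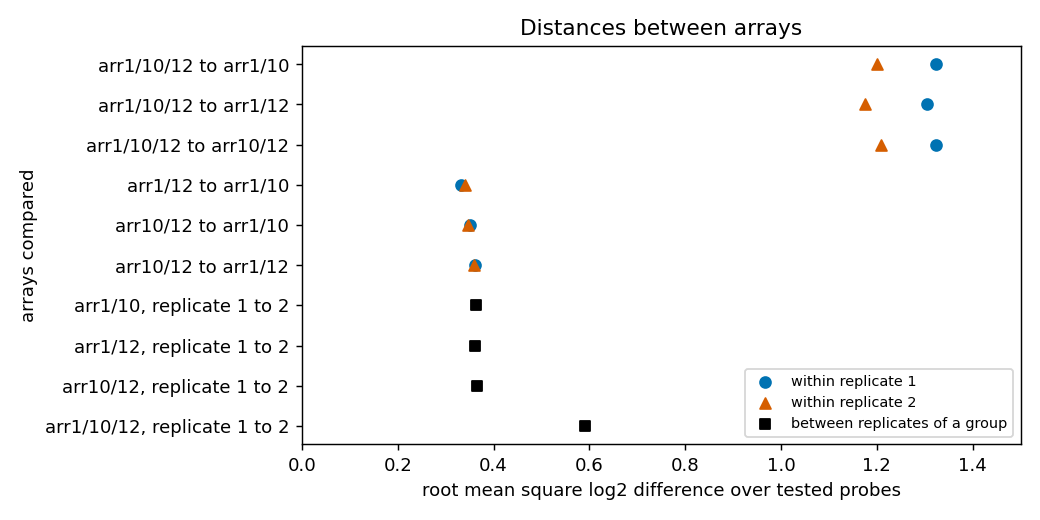
Root mean square log2 difference over the tested probes (x axis) between pairs of arrays (y axis), with circles and triangles for pairs within replicate 1 and replicate 2 and squares for the 2 replicates of a genotype. The triple is between 1.18 and 1.32 from every double, and the doubles are 0.333 to 0.362 from each other.

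Whether the step to the triple depended on which factor was left was tested by an F test among the 3 doubles, since the triple is common to the 3 steps. It called 33 probes (0.101%) at an adjusted p under 0.05, and 2287 (7.0%) at an unadjusted p under 0.05. The number was sensitive to the fit, with 233 probes when all 16 untreated arrays estimated the spread, 324 with array weights, 70 when the doubles were fitted alone, and 0 without either array of arr10/12. Of the named genes, 8 were called, and 3 of these were ARR1, ARR10, and ARR12. Except for ARR1, every one of the 8 lost its call whenever any single array of a double was left out.

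Among the other 5, VOZ2, a zinc-finger factor linked to flowering and stress, was at 11.92 and 11.93 (arr1/10) and 11.95 and 11.97 (arr1/12), but at 10.12 and 10.23 (arr10/12) and 10.11 and 10.09 in the triple (F test adjusted p = 0.0157). Thus arr10/12 was already at the level of the triple, with a remaining difference of −0.07 ± 0.07, while the step from arr1/10 was −1.82 ± 0.07. AT3G02500, of unknown function, was likewise nearest to the triple in arr10/12, at 6.68 and 6.92 against 6.91 and 7.13, and lowest in arr1/10, at 5.41 and 5.66 (adjusted p = 0.0339). AT5G47980, a transferase gene, and AT4G11190, a dirigent family gene, were highest in arr10/12. AT4G11190 was at 13.13 and 13.08 (arr1/10), 12.19 and 11.98 (arr1/12), 14.40 and 14.10 (arr10/12), and 9.94 and 10.09 in the triple (adjusted p = 0.0476), with differences of −4.23 ± 0.12 from arr10/12 and −2.07 ± 0.12 from arr1/12. AT5G47980 was at 13.11 and 13.23 (arr10/12), at 11.59 to 11.91 in the other doubles, and at 8.95 and 9.15 in the triple (adjusted p = 0.0451). GASA3, a gibberellin-regulated gene, rose to 10.16 and 10.81 in the triple from 4.09 and 4.77 (arr1/10), 2.51 and 3.54 (arr1/12), and 5.57 and 6.49 (arr10/12) (adjusted p = 0.0191). It was well above background on only 2 of the 6 double arrays, so its order among the doubles rests on signal near background.

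**Figure D5:**
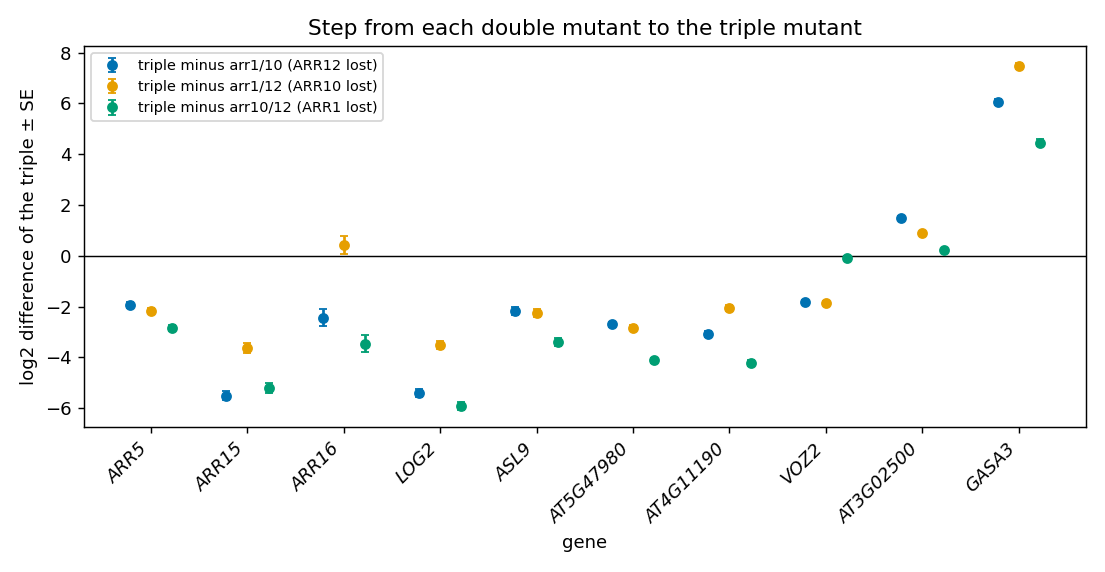
Log2 difference of the triple from each double (y axis, points with SE bars) for 10 genes (x axis), with colour for the double and so for the factor lost in that step. VOZ2 shows no step from arr10/12 (−0.07), ARR16 none that passed from arr1/12 (0.43), and ARR5 and ASL9 their largest from arr10/12.

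Within the cytokinin lists, arr10/12, the double that keeps ARR1, was the highest of the doubles for 13 of 16 tested genes. The same held for 1063 of all 1986 named genes and for 46.7% of all probes that fell by at least 1. Named genes had been listed by the study for their change from wild type in these same mutants, so this order is not independent evidence. The median step to the triple was −3.18 from arr10/12, −2.40 from arr1/10, and −2.31 from arr1/12. The F test among doubles called 0 of the 16 at an adjusted p under 0.05 (limma, 13 at an unadjusted p under 0.05), 8 when all 16 untreated arrays were in the fit, 7 with array weights, and 1, ASL9, when the doubles were fitted alone. ASL9 was at 9.83 to 9.96 in arr1/10 and arr1/12 and at 11.07 and 11.06 (arr10/12) (F test adjusted p = 0.234 as reported and 0.00498 with 16 arrays), and its step from arr10/12 was −3.39 ± 0.16. ARR16, a type-A member, was at 5.65 and 6.08 (arr1/10), 6.97 and 6.81 (arr10/12), 3.32 and 2.69 (arr1/12), and 3.90 and 2.96 in the triple. On arr1/12 and triple arrays it was not well above background, and the difference between them was 0.43 ± 0.34 (adjusted p = 0.318), against −3.46 ± 0.34 from arr10/12. Its F test gave an adjusted p of 0.129 as reported, 0.00279 with 16 arrays, and 0.0243 with array weights. LOG2 was close to the threshold (F test adjusted p = 0.0576) and passed with 16 arrays (0.00532) and with weights (0.014), and ARR15, lowest in arr1/12 among the doubles, did likewise (0.176, 0.00937, and 0.0187).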

How the data were processed

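Per the labels, total root RNA of 10-day-old seedlings was hybridized to Agilent one-colour arrays. For each array the authors deposited Feature Extraction output with a background-subtracted intensity per spot, not normalized between arrays, and the study's table of log2 values, deposited as quantile normalized median intensity without background subtraction. The processed intensity of the 61657 non-control spots of 8 arrays was log2 transformed and quantile normalized, spots flagged as outliers were dropped, and each probe was given the mean of its spots. A probe entered the tests when both arrays of 1 or more of the 4 genotypes had it well above background. Linear models were fitted with limma 3.58.1 (lmFit, then eBayes) under R 4.3.3, with a coefficient per genotype and the replicate number as a block (3 residual and 1.81 prior degrees of freedom), with Benjamini-Hochberg adjustment within each contrast and calls at an adjusted p under 0.05. The median standard error was 0.0803 for the triple against the mean of the doubles and 0.0984 against 1 double. The fit was tried on simulated data with known changes in far fewer probes than were called here. Those changes were added after normalization, so the normalization was not tested. Tables were made with Python 3.11.15, numpy 2.4.6, pandas 2.3.3, and scipy 1.17.1.

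Replicate numbers pair the arrays. Replicate 1 and replicate 2 arrays lay on different slides with different scan days, and deviations from the group means correlated in all 6 pairs of genotypes (0.252 to 0.487).

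The files name probes only. Genes were paired with probes by matching each of 2072 listed fold changes in the study's supplement to exactly 1 spot of the log2 table (tolerance 0.0005), and those values were used for nothing else. Symbols came from the gene lists used here, else from the study, else from RefSeq TAIR10.1, which held 2052 of the genes. Sequences were not used here. Named are the deleted genes, the 12 largest falls and rises among called genes whose groups did not overlap, members of the cytokinin lists, up to 4 genes of each other list, genes called among the doubles, and the 3 genes with the largest difference called against 1 double alone. From these the genes with a known role were preferred in the text. The seed-type, photosystem, and root hair groups were chosen after values were seen. All members, lists, and tests were chosen with earlier results of these data known. Alternatives tried were 75th percentile scaling, normalization over 20 arrays, normexp (on median signals, as mean signals were not used here), the authors' log2 table, other filters, no block, 16 arrays, array weights, a fold cutoff, the methods' t-test, and each array left out. A result on 1 gene of the marker lists is not reported here.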

Additional observations from a re-analysis of the deposited data

Results flagged for a closer look

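The step to the triple differed by which factor had been left for 8 named genes, by the F test among the doubles (limma, adjusted p). For ARR1 (0.000877), ARR10 (0.00968), and ARR12 (0.0199) the differences were those of the deleted genes themselves. For VOZ2 (0.0157), arr10/12 was at the level of the triple. For GASA3 (0.0191), arr10/12 was the highest and arr1/12 the lowest double, with only 2 of the 6 double arrays well above background. For AT3G02500 (0.0339) the level was ordered from arr1/10 through arr1/12 to arr10/12. For AT5G47980 (0.0451) and AT4G11190 (0.0476), arr10/12 was the highest double. When 1 array of a double was left out, the adjusted p was 0.0243 to 0.0673 for ARR1, which lost the call in 3 of 6 such fits. The other 7 genes lost it in all 6, with 0.0512 to 0.161 for ARR10, 0.117 to 0.182 for ARR12, 0.107 to 0.177 for VOZ2, 0.107 to 0.174 for GASA3, 0.179 to 0.322 for AT3G02500, 0.156 to 0.438 for AT5G47980, and 0.166 to 0.385 for AT4G11190. With all 16 untreated arrays in the fit VOZ2 was at 4.07e-05.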

How the results depend on the processing

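The numbers of calls for the triple against the mean of the doubles were within 1.5 times of 22824 under every alternative other than a cutoff of 1 on the absolute log2 difference, which left 7732, with 7622, 7456, and 7901 against arr1/10, arr1/12, and arr10/12. Leaving out 1 array gave 19995 to 22328 calls against the mean, 13265 to 21247 against arr1/10, 14340 to 20825 against arr1/12, and 13966 to 21437 against arr10/12. Where an array of the triple or of a double was left out, the lone array was assumed to vary like the other groups. Without the replicate block (no pairing), 19134 probes were called, and with the methods' t-test 20062 after Benjamini-Hochberg adjustment. The F test among the doubles, with 33 calls, depended on the setting. It called 21 with normalization over 20 arrays, 21 with normexp, 3 with no filter, 11 with only probes well above background on all 8 arrays, 233 with all 16 untreated arrays in the fit, 324 with array weights, 70 on the 6 double arrays alone (an alternative chosen after seeing the data), 40 with no replicate block, and 0 to 86 with 1 array left out. The cause of these differences was not tested.

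The gap by which arr1/12 was the nearest double, 0.0216 on average, was 0.0122 with 75th percentile scaling, 0.0092 as a median absolute difference, and 0.0031 as a Spearman correlation, and 0.019 to 0.0244 with 1 array left out. It kept its sign in all settings tried. Of 1701 comparisons of 102 named genes with an alternative, 1653 stayed on the same side of the threshold, 31 lost the call, 17 gained it, and 0 changed direction. For 24 genes tested among the doubles, 65 comparisons lost the call and 27 gained it. GASA3 and AT3G02500 were not called with normexp, the authors' table, or no replicate block (adjusted p = 0.4 and 0.144 for the last). AT5G47980 was not called without the replicate block (0.0605), with normalization over 20 arrays (0.0563), on the 6 double arrays alone (0.056), or without replicate 1 or 2 of the triple (0.0513 and 0.0512), and GASA3 and AT4G11190 were not called with normalization over 20 arrays (0.0663 and 0.0592). With no filter, ARR1 alone of the 8 genes called among the doubles kept its call. The 2 arrays per genotype limit the precision, and dim probes such as ARR16 and EXPB2 had low signal over background.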
